A study of Mus musculus with 16 samples.

Results

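The 8 genes described here encode secreted signals that act on neighbouring cells. They are the platelet-derived growth factor chains Pdgfa and Pdgfb, the vascular endothelial growth factors Vegfa and Vegfb, the heparin-binding growth factor midkine (Mdk), the EGF receptor ligand Hbegf, insulin-like growth factor 1 (Igf1) and the endothelin 1 precursor (Edn1). They were listed by name, with results of the comparisons below in view, and were found by symbol among the 55416 gene IDs of the count table. All 8 passed the filter on low counts, which left 14168 genes. Because the list was made from these comparisons, the fold changes and calls of the 8 genes are a description and no p-value is given for them.

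The cells were mouse Hoxb8 macrophages, which are grown from bone marrow progenitors of a conditionally immortalised line and are labelled with no further allele or strain. 4 libraries came from macrophages alone, and 4 each from macrophages fed for 45, 90 or 180 min with apoptotic cells of Jurkat, a line from a human T cell leukaemia. Ribosomal RNA was depleted before the libraries were made. No harvest time is given for the macrophages alone, so exposure to dying cells and time in culture cannot be told apart.

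Macrophages that take up dying cells, a process called efferocytosis, are known to release factors that act in tissue repair. Dimers of the PDGF chains act on mesenchymal cells through a pair of receptor tyrosine kinases, VEGF-A acts on endothelial cells through Kdr and Flt1, and HB-EGF is made as a membrane protein that proteases of the ADAM family release. IGF-1 acts through Igf1r and is made by macrophages as well as by the liver, and endothelin 1 is cut from its precursor by furin-type and endothelin-converting enzymes and acts on vessels through Ednra and Ednrb.

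Library totals ranged from 10.7 M to 41.7 M counts. The deepest group was 45 min, with 24.4 M to 41.7 M, and the shallowest were 90 min, with 13.6 M to 17.4 M, and 180 min, with 10.7 M to 23.4 M. All 14 macrophage markers looked up were among the genes tested. Of 25 T cell and Jurkat markers, looked up as mouse genes, 4 passed the filter, and Cd3e, Cd3g, Cd2, Trbc1 and Trbc2 had 0 counts in every library. Jurkat is a human line, so these zeros do not show whether its RNA was present. The summed level of the 25 markers was 16.02 to 21.1 CPM in macrophages alone, 14.2 to 16.3 at 45 min, 17.03 to 21.5 at 90 min and 18.2 to 24.2 at 180 min, mostly from Cd28 and Tal1. Of 8 endothelial markers only Vwf, Pecam1 and Cdh5 had counts. Their sum was 45.7 to 49.1 CPM in macrophages alone, 37.3 to 49.3 at 45 min, 43.5 to 55.5 at 90 min and 62.9 to 70.4 at 180 min, and Tek, Tie1, Erg, Emcn and Cldn5 were at 0. The part of these markers in the results below was not tested. In bulk RNA a smaller share of cells that express a gene and less RNA per cell cannot be told apart. Whether the 4 libraries of a group are separate cultures is not labelled, and a p-value then covers the spread among these samples alone, which may be technical.

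Promoter sequence is shown for the 4 genes with a matched window that begins outside annotated exons, beside their patterns over time. Edn1 was highest at 45 min, Pdgfa was highest at 180 min, Vegfa was above macrophages alone at all times, and Vegfb showed no called difference. RefSeq windows on GRCm38.p6, each from 250 bases before to 50 bases after a transcription start, were matched by symbol for 5 of the 8 genes (7 windows). No window was matched for Pdgfb, Mdk or Hbegf. That of Igf1, the other of the 5, begins with a base annotated as an exon and is not printed. The runs below are chr13:42301226-42301475 on the plus strand for Edn1, and chr5:138995038-138995194, chr17:46032378-46032627 and chr19:6987652-6987901 on the minus strand for Pdgfa, Vegfa and Vegfb. Each stops before the first base annotated as an exon on its strand or at the start site. Capitals mark matches, on either strand, to the letters searched.
Edn1 promoter: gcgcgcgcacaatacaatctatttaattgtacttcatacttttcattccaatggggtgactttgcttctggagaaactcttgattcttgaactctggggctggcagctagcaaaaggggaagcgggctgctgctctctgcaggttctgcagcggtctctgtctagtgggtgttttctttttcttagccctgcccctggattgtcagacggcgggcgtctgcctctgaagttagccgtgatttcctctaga
Pdgfa promoter: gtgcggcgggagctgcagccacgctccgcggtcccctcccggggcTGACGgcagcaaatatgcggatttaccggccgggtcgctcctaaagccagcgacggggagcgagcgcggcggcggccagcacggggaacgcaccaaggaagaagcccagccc
Vegfa promoter: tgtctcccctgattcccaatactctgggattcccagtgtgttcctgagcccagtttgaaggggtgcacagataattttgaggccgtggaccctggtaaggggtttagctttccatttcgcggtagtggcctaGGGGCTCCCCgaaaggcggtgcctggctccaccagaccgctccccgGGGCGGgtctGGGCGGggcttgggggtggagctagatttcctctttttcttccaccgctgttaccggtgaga
Vegfb promoter: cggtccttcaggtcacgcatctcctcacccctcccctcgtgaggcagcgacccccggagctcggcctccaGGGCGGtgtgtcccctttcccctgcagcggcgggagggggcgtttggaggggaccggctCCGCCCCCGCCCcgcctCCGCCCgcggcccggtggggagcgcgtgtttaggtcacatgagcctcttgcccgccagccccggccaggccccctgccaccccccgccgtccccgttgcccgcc

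The letters searched were GCGNGGGCG for EGR factors, ACGTG for the core of the hypoxia response element and TGANTCA for AP-1. TGACG was searched for a cyclic AMP response half-site and GGGCGG for the GC box. The CArG and NF-kB motifs were searched as letter patterns with alternative bases, not spelled out here. Among all 32851 windows, an EGR match was in 5.55%, a hypoxia core in 19.6%, an AP-1 match in 7.81%, a half-site in 20.8%, a GC box in 35.7%, a CArG box in 1.63% and an NF-kB match in 4.51%. The EGR letters were found in the window of Vegfb, 120 to 112 bases before the start, where they overlap 2 of its 4 GC boxes. The printed Vegfa run held 2 GC boxes and an NF-kB match, 118 to 109 bases before the start. The second Vegfa window, not printed, held a hypoxia core and a half-site that overlap, and a GC box. The printed Pdgfa run held a half-site, 205 to 201 bases before the start, and its window also held 2 GC boxes closer to the start, in bases not printed. A second Pdgfa window held a GC box. The Edn1 run held no match, and its window held a hypoxia core 22 to 26 bases after the start. The Igf1 window held an AP-1 match, 37 to 31 bases before the start. A match is a description of the letters and does not show that a factor binds there.

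Levels per length of gene separated the 8 genes into a high and a low class. In macrophages alone Igf1 stood at 83.1 ± 2.87 CPM per kb of exon (SD, n = 4) and Vegfa at 40.8 ± 2.03. In average log2 CPM over all 16 libraries, not divided by length, Igf1 and Vegfa were above 99.1% and 93.7% of the genes tested. Vegfb was next at 2.81 ± 0.410 CPM per kb. Pdgfb (1.42 ± 0.261), Mdk (1.40 ± 0.418) and Edn1 (1.29 ± 0.406) followed, with ranges that overlapped between neighbours. Pdgfa (0.367 ± 0.181) and Hbegf (0.196 ± 0.0426) were lowest, and their ranges overlapped too.

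The order below Vegfa changed with time. At 45 min Edn1 came next at 3.28 ± 0.267 CPM per kb, overlapping Vegfb at 2.86 ± 0.912. At 90 min Mdk came next at 4.84 ± 1.67, with no overlap with Pdgfb at 2.81 ± 0.220. At 180 min Pdgfb came next at 4.12 ± 0.359, overlapping Mdk at 3.37 (2.32 to 4.65 in single libraries), and only Hbegf was below Edn1 at 0.930 ± 0.140. Igf1, Vegfa and Hbegf were highest, second highest and lowest in all 4 groups.

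**Figure D1:**
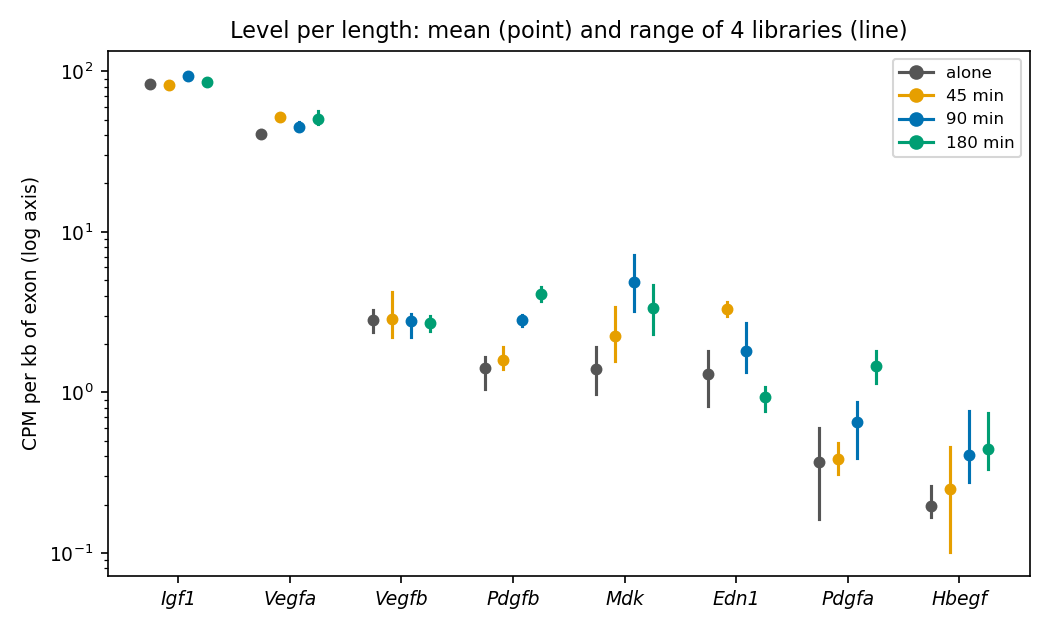
Level of each gene in CPM per kb of exon on a log axis, by group, with the mean of 4 libraries as a point and their range as a line. Igf1 and Vegfa lie above 39 CPM per kb in every library, and the other 6 genes lie below 7.2 CPM per kb in every library.

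The 3 comparisons against macrophages alone share those 4 control libraries. At 45 min 2 of the 8 genes were called higher at an adjusted p under 0.05, where 4.69% of all genes tested were called higher, and 0 were called lower, against 6.11%. At 90 min 4 were called higher (11.1% of all genes) and 0 lower (9.97%), and at 180 min 5 were called higher (15.1%) and 0 lower (16%). At an unadjusted p under 0.05, and with DESeq2, the number lower was also 0 at each time. The median log2 fold change of the 8 genes was 0.27, 0.66 and 0.71 at the 3 times, beside 0.00, 0.00 and 0.01 over all genes tested. Over the 3 times together 7 of the 8 were called, all but Vegfb, where 44.6% of all genes were. Since the list was made from these comparisons, nothing is read from the counts.

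When each library was corrected for a trend on length and GC content of genes, the split of all called genes moved. At 45 min 1109 genes were called higher and 504 lower in place of 664 and 865. At 90 min they were 1375 and 2159 in place of 1573 and 1413, and at 180 min 1792 and 3037 in place of 2139 and 2265. Between 45 and 90 min they were 1431 and 3099 in place of 2096 and 1888, and between 45 and 180 min 1912 and 3861 in place of 2596 and 2556. Among the 8 genes Igf1 changed direction between 45 and 90 min under this setting, as given with its values below.

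**Figure D2:**
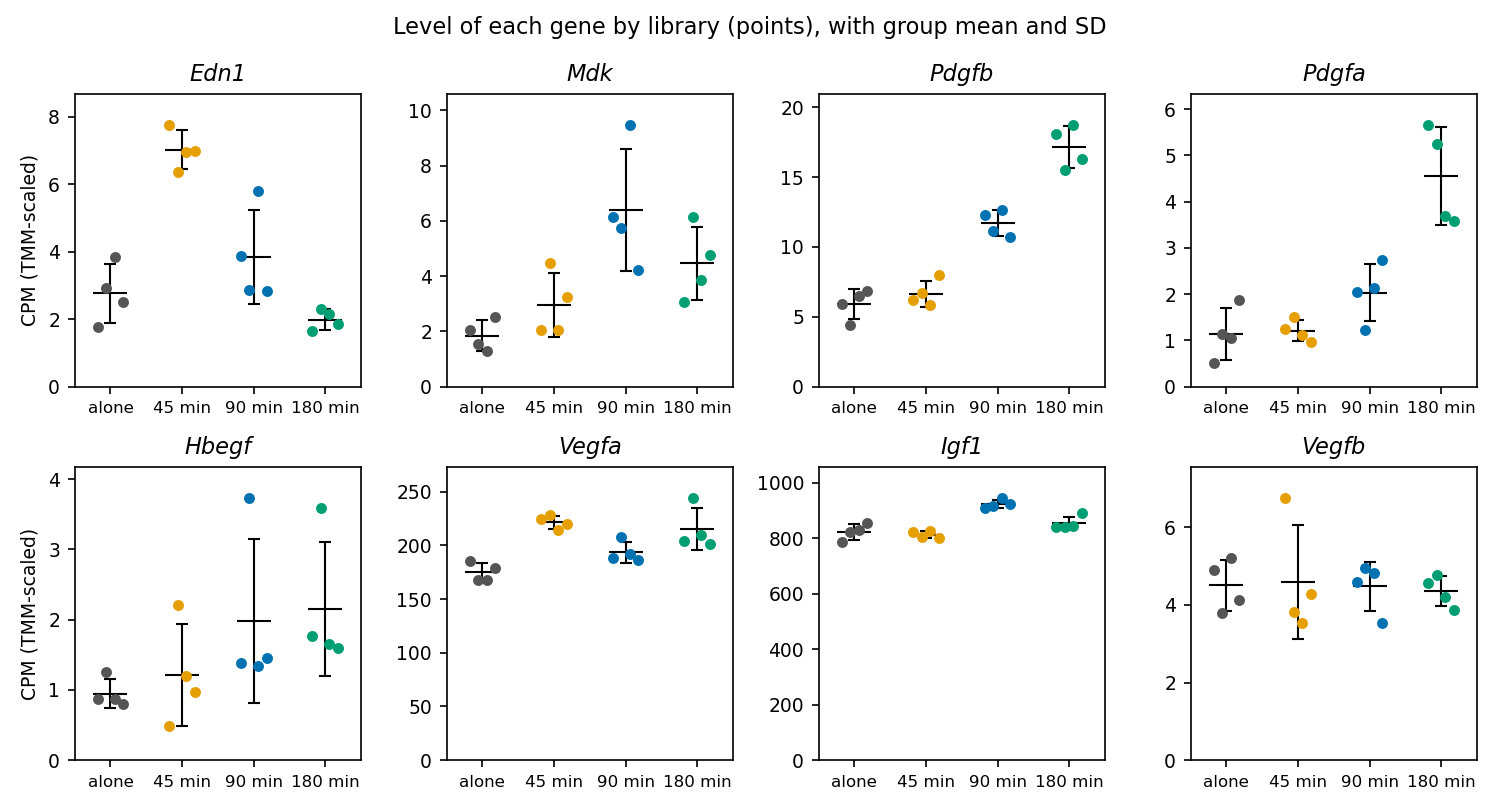
Level of each gene in CPM scaled by TMM factors, on a linear axis from 0, for the 4 libraries of each group (points), with the group mean and SD as a bar. Edn1 peaks at 45 min, Mdk and Igf1 have their highest means at 90 min, and Pdgfa, Pdgfb and Hbegf have their highest means at 180 min.

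The PDGF chains had their highest levels at 180 min, with no overlap with any other group. How many of all genes tested do the same was not counted, so nothing particular to the 2 chains is read from this. Pdgfb (ENSMUSG00000000489), the chain that binds both PDGF receptors, was at 5.91, 4.39, 6.46 and 6.87 CPM in the 4 libraries of macrophages alone. It was at 6.19, 6.67, 5.81 and 7.97 CPM at 45 min, 12.3, 11.1, 12.7 and 10.7 at 90 min, and 18.1, 15.5, 18.7 and 16.3 at 180 min. The group means of Pdgfb were 5.91 ± 1.09 CPM alone, 6.66 ± 0.939 at 45 min, 11.7 ± 0.915 at 90 min and 17.2 ± 1.49 at 180 min (SD, n = 4 each, as for all means below). The first 2 groups overlapped, every 90 min library was above all libraries of both, and every 180 min library was above every 90 min library. The log2 fold change against macrophages alone was 0.19 (SE 0.14) at 45 min, 0.99 (SE 0.14) at 90 min and 1.55 (SE 0.14) at 180 min, and the last 2 were called. Between 90 and 180 min it was 0.56 (SE 0.13), and this call was lost when all libraries were thinned to the smallest one (0.45).

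Pdgfa (ENSMUSG00000025856), the chain that acts mainly through Pdgfra, was measured by few reads, with 14 to 87 counts per library. Its level was 0.505, 1.14, 1.06 and 1.88 CPM in macrophages alone and 1.24, 1.498, 1.11 and 0.968 CPM at 45 min. It was 2.04, 1.22, 2.12 and 2.73 CPM at 90 min and 5.66, 5.24, 3.70 and 3.58 CPM at 180 min. Mean levels of Pdgfa were 1.14 ± 0.564 CPM alone, 1.21 ± 0.225 at 45 min, 2.03 ± 0.619 at 90 min and 4.54 ± 1.06 at 180 min. The first 3 groups overlapped, while all 4 libraries of 180 min were above all 12 others. The log2 fold change was 0.10 (SE 0.33), 0.86 (SE 0.34) and 2.003 (SE 0.33) at the 3 times, and only that at 180 min was called. The value at 90 min was called without library 4 of macrophages alone (1.17), without library 2 of 90 min (1.05), without library 2 of every group (1.05), or with DESeq2 (0.86). From 90 to 180 min the difference was 1.15 (SE 0.32), called, and the call was lost when libraries were thinned (0.97) or when library 2 of every group was left out (0.90).

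A gene on the opposite strand shares sequence with Pdgfa. 813 of the 3119 exon bases of Pdgfa (26.1%) are also exon of the antisense gene 6330403L08Rik. That gene was at 0.949 ± 0.381 CPM in macrophages alone, 0.916 ± 0.0790 at 45 min, 4.83 ± 0.535 at 90 min and 7.76 ± 1.58 at 180 min (SD, n = 4 each, totals not scaled). Its log2 fold change was 2.34 (SE 0.26, adjusted p = 2.49e-10) at 90 min and 2.98 (SE 0.26, adjusted p = 1.09e-14) at 180 min by edgeR's quasi-likelihood test. The library kit marks strand, but the strand setting of the counting is not given in the sources used here. Whether reads of this gene and of Pdgfa were separated in the shared bases is therefore not known. Both genes were at their highest at 180 min, and from 90 to 180 min 6330403L08Rik differed by 0.64 (SE 0.23, adjusted p = 0.0583), not called, beside 1.15 for Pdgfa. The neighbour's part in the values of Pdgfa was not tested. Of the other 7 genes, Edn1 shares 35 bases (1.64%) with an antisense gene, Gm47118, which had 0 counts in every library.

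Edn1 (ENSMUSG00000021367), which encodes the precursor of a peptide that constricts vessels, was the gene of the list with the largest fold at 45 min. It was at 1.77, 2.94, 3.85 and 2.52 CPM in macrophages alone and at 7.76, 6.37, 6.97 and 6.997 CPM at 45 min. It was at 3.87, 2.85, 5.80 and 2.84 CPM at 90 min and at 1.64, 2.30, 2.17 and 1.85 CPM at 180 min. The group means of Edn1 were 2.77 ± 0.869 CPM alone, 7.02 ± 0.570 at 45 min, 3.84 ± 1.39 at 90 min and 1.99 ± 0.300 at 180 min. All 4 libraries of 45 min were above all 12 others, and the 180 min libraries were below those of 90 min but overlapped macrophages alone. The log2 fold change against macrophages alone was 1.34 (SE 0.21) at 45 min, called, 0.46 (SE 0.23) at 90 min and -0.48 (SE 0.24) at 180 min, both not called. The value at 90 min was 0.27 without library 1 of macrophages alone and 0.19 without library 3 of 90 min. That at 180 min was called without library 1 of macrophages alone (-0.66) and was -0.27, not called, without library 3.

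From 45 to 90 min Edn1 was lower by a log2 value of -0.88 (SE 0.22), and from 90 to 180 min by -0.94 (SE 0.25), both called. From 45 to 180 min the difference was -1.82 (SE 0.23). The first of these calls was lost with thinned libraries (-0.63), and the second with thinned libraries (-0.90) or without library 3 of 90 min (-0.67), the highest of its group.

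Mdk (ENSMUSG00000027239) encodes midkine, a heparin-binding factor that acts on cell growth and migration. It was at 2.06, 1.53, 1.28 and 2.52 CPM in macrophages alone and at 2.06, 4.49, 2.06 and 3.24 CPM at 45 min. It was at 6.13, 5.76, 9.48 and 4.24 CPM at 90 min and at 3.07, 6.16, 3.87 and 4.76 CPM at 180 min. Mean levels of Mdk were 1.85 ± 0.553 CPM alone, 2.97 ± 1.16 at 45 min, 6.40 ± 2.21 at 90 min and 4.46 ± 1.32 at 180 min. The libraries of 90 and 180 min were above all 4 of macrophages alone, and overlapped each other and the 45 min group. Its log2 fold change was 0.70 (SE 0.26) at 45 min, not called, 1.80 (SE 0.26) at 90 min and 1.27 (SE 0.26) at 180 min, both called. At 45 min it was called without library 4 of macrophages alone (0.89), without library 1 (0.86) or 3 (0.85) of 45 min, or with no filter on low counts (0.72). Without library 2 of 45 min it was 0.46, and without library 2 of every group 0.38, both not called. The difference from 90 to 180 min, -0.53 (SE 0.25), was not called.

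Hbegf (ENSMUSG00000024486), an EGF receptor ligand released from the cell surface by proteases, had the lowest level of the 8, with 15 to 65 counts per library. It was at 0.866, 1.25, 0.868 and 0.805 CPM in macrophages alone and at 0.491, 2.21, 1.20 and 0.968 CPM at 45 min. It was at 1.39, 3.72, 1.34 and 1.45 CPM at 90 min and at 1.77, 3.58, 1.66 and 1.60 CPM at 180 min. The group means of Hbegf were 0.948 ± 0.206 CPM alone, 1.22 ± 0.726 at 45 min, 1.98 ± 1.17 at 90 min and 2.15 ± 0.956 at 180 min. Every library of 90 and 180 min was above every library of macrophages alone, and library 2 was the highest of each group. The numbers only name columns in file order, so libraries of the same number are not known to belong together.

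The log2 fold change of Hbegf was 0.35 (SE 0.40), 1.06 (SE 0.41) and 1.14 (SE 0.41) at the 3 times, and only the last was called. That call was lost without library 1 (1.09), 3 (1.10) or 4 (1.08) of macrophages alone, without library 2 of 180 min (0.81), or without library 2 of every group (0.98). All libraries were thinned to the smallest total in a single random draw, which leaves few counts of this gene. This moved the value to 2.26 at 90 min and 2.27 at 180 min, both called. The value at 90 min was also called with DESeq2 (1.06), with only the 2 groups compared in the fit (1.07), and without library 2 of macrophages alone (1.22) or libraries 1, 3 or 4 of 90 min (1.18, 1.20 and 1.19). It was called too without library 1 or 2 of 45 min (1.06 each). Without library 2 of 90 min, the highest of its group, it was 0.55 and not called.

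Vegfa (ENSMUSG00000023951), the main growth factor for blood vessels, was at 168 to 185 CPM in macrophages alone. Its 4 libraries were at 185, 168, 168 and 178 CPM in macrophages alone, 224, 228, 214 and 220 at 45 min, 188, 208, 192 and 187 at 90 min and 204, 244, 210 and 202 at 180 min. Mean levels of Vegfa were 175 ± 8.72 CPM alone, 222 ± 6.13 at 45 min, 194 ± 9.82 at 90 min and 215 ± 19.6 at 180 min. Each time was above macrophages alone with no overlap, and 90 min was below 45 min with no overlap. Its log2 fold change was 0.34 (SE 0.050), 0.15 (SE 0.051) and 0.29 (SE 0.051) at the 3 times, all called, so that the mean was at most 1.27-fold that of macrophages alone. The call at 90 min was lost without library 2 (0.13) or 3 (0.13) of macrophages alone, without library 2 of 90 min (0.11), without library 3 of 180 min (0.13), or without library 2 of every group (0.09). It was also lost with thinned libraries (0.11) or the length and GC trend removed (0.10). From 45 to 90 min the difference was -0.19 (SE 0.050), called, and from 90 to 180 min 0.15 (SE 0.051), not called, although 15 of 23 alternatives called it.

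Vegfb (ENSMUSG00000024962), a VEGF that binds Flt1, showed no called difference in any of the 6 comparisons. It was at 4.91, 3.80, 5.21 and 4.13 CPM in macrophages alone, 6.74, 3.81, 3.55 and 4.29 at 45 min, 4.60, 4.95, 4.81 and 3.54 at 90 min and 4.57, 4.78, 4.21 and 3.88 at 180 min. The group means of Vegfb were 4.51 ± 0.657 CPM alone, 4.60 ± 1.46 at 45 min, 4.47 ± 0.638 at 90 min and 4.36 ± 0.398 at 180 min. All 4 groups overlapped. The 95% interval of the log2 fold change was -0.35 to 0.41 at 45 min, -0.42 to 0.38 at 90 min and -0.46 to 0.33 at 180 min. Differences within these intervals are not excluded by these libraries.

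Igf1 (ENSMUSG00000020053), a growth and survival factor, was the most abundant of the 8. Its libraries were at 785, 824, 830 and 853 CPM in macrophages alone, 821, 804, 826 and 800 at 45 min, 910, 915, 943 and 922 at 90 min and 839, 840, 844 and 890 at 180 min. Mean levels of Igf1 were 823 ± 28.4 CPM alone, 813 ± 12.7 at 45 min, 923 ± 14.5 at 90 min and 853 ± 24.4 at 180 min. Every 90 min library was above all 12 others, and the first 2 groups overlapped. The log2 fold change was -0.02 (SE 0.037) at 45 min, 0.17 (SE 0.038) at 90 min, called, and 0.05 (SE 0.038) at 180 min. From 45 to 90 min it was 0.18 (SE 0.037), called. From 90 to 180 min it was -0.11 (SE 0.038), called, but 20 of 23 alternatives lost that call, with values from -0.09 to -0.11. Among them were the fits without any single library other than library 4 of 180 min.

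The direction for Igf1 between 45 and 90 min depended on the processing. With the length and GC trend removed it was -0.11, called, in place of 0.18, and under that setting the value at 45 min against macrophages alone was 0.28, called, in place of -0.02. Between 45 and 180 min it was -0.23, called, in place of 0.07, not called. At 90 min against macrophages alone the 2 settings gave 0.17 each. The exons of Igf1 span 9904 bases, the longest of the 8 genes.

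**Figure D3:**
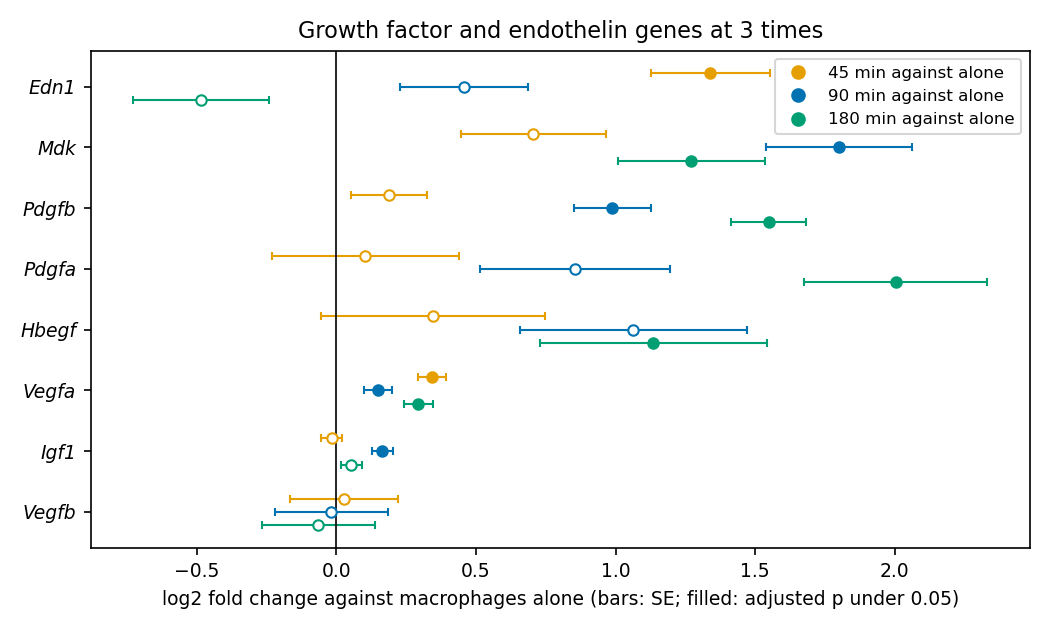
Log2 fold change of each gene against macrophages alone at 45, 90 and 180 min, with the standard error as a bar and a filled point where the adjusted p is under 0.05. Edn1 is highest at 45 min (1.34) and Mdk at 90 min (1.80), while Pdgfb (1.55) and Pdgfa (2.003) are highest at 180 min and Vegfb lies near 0 at all times.

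Between the times, 3 of the 8 genes were called higher at 90 than at 45 min (Pdgfb, Mdk and Igf1), where 14.8% of all genes were, and 2 were called lower (Vegfa and Edn1), against 13.3%. At 180 against 90 min Pdgfa and Pdgfb were called higher (4.45% of all genes) and Igf1 and Edn1 lower (6.97%). At 180 against 45 min Pdgfa and Pdgfb were called higher (18.3%) and Edn1 lower (18%). Nothing is read from these counts either. The median log2 fold change of the 8 genes was 0.45, 0.01 and 0.32 in these comparisons, beside 0.02, -0.002 and 0.02 over all genes tested.

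Likeness of pattern was measured as Pearson's r of log2 CPM over the 16 libraries, which share the 4 groups and their depths, so r describes these libraries and is given with no p. Pdgfa and Pdgfb had the highest r among the 8 genes, 0.84, followed by Pdgfb and Mdk (0.70), Mdk and Igf1 (0.68) and Mdk and Hbegf (0.63). The 3 most like genes were sought among about 9851 other genes of sufficient level. For Pdgfb they were Rapgef3 (0.97), an exchange factor activated by cyclic AMP, Gna13 (0.96), a G protein subunit, and Cdc42ep2 (0.96), an effector of Cdc42. For Pdgfa they were Igsf6 (0.92), Ube2d3 (0.91) and Mir17hg (0.91), the host transcript of a microRNA cluster. For Edn1 they were the phosphatase gene Dusp8 and the transcription factor genes Csrnp1 and Klf6, each at 0.91. For Igf1 they were Samd9l (0.92), Lgals8 (0.92) and Dhx36 (0.90).

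The other genes had lower values. For Mdk they were Wdr13 (0.88), Plekhn1 (0.87) and Ppid (0.87), for Vegfa Cops8 (0.87), Zfp408 (0.87) and Hmg20b (0.86), and for Hbegf Nup85 (0.82), Ddx31 (0.81) and Camta2 (0.81). Vegfb had the lowest, with Slc12a7 at 0.75, Abhd15 at 0.74 and Tmem97 at 0.73. Rapgef3 was at 2.83, 3.87, 8.36 and 15.3 CPM in the 4 groups in order of time, beside 5.91, 6.66, 11.7 and 17.2 for Pdgfb. Csrnp1 was at 65.1, 111, 70.6 and 52.2 CPM, beside 2.77, 7.02, 3.84 and 1.99 for Edn1.

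The lists of pathway genes below were chosen with earlier results of these data known, and their counts are given beside the shares of all genes tested with nothing particular to a list read from them. The families of the ligands had few other members in the cells. Of the 5 other PDGF and VEGF ligands, Pdgfc, Vegfc and Pgf passed the filter on low counts. Pgf, placental growth factor, a ligand of Flt1, rose from 0.270 ± 0.104 CPM in macrophages alone to 1.59 ± 0.418 at 90 min and 2.34 ± 0.351 at 180 min (SD, n = 4 each). Its log2 fold change was 2.51 (SE 0.51, adjusted p = 0.00015) and 3.07 (SE 0.51, adjusted p = 1.43e-06), from 4 to 10 counts per library in macrophages alone, and all libraries of both times were above all of macrophages alone. Adjusted p-values here and below are from edgeR's quasi-likelihood F test with Benjamini-Hochberg adjustment over all genes tested. Pgf lies with Pdgfa and Pdgfb among the ligand genes whose mean was highest at 180 min.

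Of the 10 other EGF family ligands 3 passed the filter (Egf, Nrg1 and Nrg4), and Tgfa, Btc and Nrg3 had 0 counts. Nrg1, a ligand of Erbb3 and Erbb4, had 0 to 7 counts per library in macrophages alone and 0 to 23 at 90 min. Its log2 fold change at 90 min, 2.37 (SE 0.86, adjusted p = 0.0393), lost its call in 10 of 21 alternatives, among them fits without library 1, 3 or 4 of macrophages alone (1.92, 2.16 and 2.60), without library 1, 2 or 4 of 90 min (2.16, 1.87 and 2.50) or without library 4 of 180 min (2.36). Nrg4, a ligand of Erbb4, was lower at 45 min (-0.35, SE 0.10, adjusted p = 0.0208) and higher at 90 than at 45 min (0.56, SE 0.11, adjusted p = 3.73e-05). Its call at 45 min was lost without library 1 or 4 of macrophages alone (-0.30 and -0.31), without library 1 or 4 of 45 min (-0.30 and -0.27) or with the length and GC trend removed (-0.27). The paralogs of midkine, IGF-1 and endothelin 1 (Ptn, Igf2, Ins2, Edn2 and Edn3) had 0 counts in all 16 libraries.

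Among 27 other secreted growth factor genes listed, 25 were matched and 15 were tested. At 45, 90 and 180 min 4, 5 and 5 of the 15 were higher and 0, 3 and 3 lower, beside 4.69%, 11.1% and 15.1% of all genes higher and 6.11%, 9.97% and 16% lower, with medians of 0.09, 0.16 and 0.08. At 45 min the number lower was also 0 at an unadjusted p under 0.05 and with DESeq2. Osm, the cytokine oncostatin M, rose at 45 min (0.94, SE 0.092, adjusted p = 1.18e-11) and at 180 min (0.75, SE 0.095, adjusted p = 3.07e-09), with 0.00 (SE 0.100, adjusted p = 0.995) at 90 min. Inhba, the activin A subunit, rose at 90 min from 116 ± 13.8 to 225 ± 18.9 CPM (0.96, SE 0.062, adjusted p = 3.02e-19). Mdk also had its highest mean CPM at 90 min, as did Igf1, whose order of 45 and 90 min depended on the processing. Smaller rises of Inhba were called at 45 min (0.21, lost in 5 alternatives) and 180 min (0.20, lost with DESeq2). Hgf, hepatocyte growth factor, rose at 180 min (0.51, SE 0.082, adjusted p = 9.61e-07). Grn, progranulin, fell by 0.21 at 90 min (SE 0.034, adjusted p = 1.63e-06) and by 0.28 at 180 min (SE 0.034, adjusted p = 8.56e-10).

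Receptors for the 8 ligands were partly present. Pdgfra and Pdgfrb had 40 and 45 counts over all 16 libraries and were not tested, Egfr and Erbb4 had 0 counts and Ednra had 1. Flt1, Kdr, Igf1r and Ednrb passed the filter, as did Flt4 and Erbb3, which are receptors of related ligands outside the 8. Of 16 tested receptors and co-receptors 1, 1 and 4 were higher and 5, 5 and 6 lower at the 3 times, beside 4.69%, 11.1% and 15.1% of all genes higher and 6.11%, 9.97% and 16% lower, with medians of -0.15, -0.16 and -0.31. Insr, the insulin receptor, fell at all 3 times, by 0.31, 0.36 and 0.60 on the log2 scale (SE 0.056 to 0.058), from 112 ± 5.996 CPM to 73.6 ± 6.06 at 180 min (adjusted p = 4.25e-13). Nrp1, a co-receptor of VEGF-A, fell by 0.54 at 180 min (SE 0.050, adjusted p = 1.39e-13), and all its 180 min libraries were below all of macrophages alone. Lrp1, an endocytic receptor that midkine binds, fell by 0.33 at 45 min (SE 0.050, adjusted p = 1.68e-06) and rose by 0.34 at 180 min (SE 0.050, adjusted p = 1.43e-07).

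Proteases that process or release such ligands moved in both directions. The proteases named below, chosen by smallest p, were all called higher, and those called lower are not named. Of 12 tested, 3, 4 and 4 were higher and 0, 2 and 3 lower at the 3 times, beside 4.69%, 11.1% and 15.1% of all genes higher and 6.11%, 9.97% and 16% lower, with medians of 0.08, -0.04 and -0.001. At 45 min the number lower was 1 at an unadjusted p under 0.05 and 1 with DESeq2. Furin, which cuts the PDGF chains and the endothelin precursor, rose at 180 min (0.52, SE 0.047, adjusted p = 3.68e-14). Plau, urokinase, rose at every time, by 1.02 at 180 min (SE 0.051, adjusted p = 7.1e-25), from 113 ± 6.49 to 229 ± 14.6 CPM. Rhbdf2, the iRhom needed for the HB-EGF sheddase ADAM17, rose by 0.45 at 90 min and 0.47 at 180 min (SE 0.051 each, adjusted p = 3.16e-10 and 2.09e-11). Igfbp4 and Igfbp6 were the only 2 of 10 IGF binding protein genes tested, and neither was called at any time, at an unadjusted p under 0.05 or with DESeq2.

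Feedback regulators of receptor tyrosine kinases moved in both directions. Of 12 tested, 3, 4 and 3 were higher and 2, 2 and 5 lower at the 3 times, beside 4.69%, 11.1% and 15.1% of all genes higher and 6.11%, 9.97% and 16% lower, with medians of 0.09, 0.02 and -0.04. Dusp6, a phosphatase of ERK, fell to 56.4 ± 6.16 CPM at 180 min from 115 ± 4.85 (-1.03, SE 0.060, adjusted p = 5.68e-22). Spry2, an inhibitor of signalling from these receptors, rose at 45 min (0.25, SE 0.061, adjusted p = 0.00282) and fell at 180 min (-0.79, SE 0.066, adjusted p = 2.03e-15). Dusp5 rose at 45 min, the time of the Edn1 peak (0.85, SE 0.066, adjusted p = 2.47e-15), and by less at 90 min (0.25, SE 0.069, adjusted p = 0.0059). Socs2, an inhibitor of cytokine and growth hormone signalling, had 4 to 8 counts per library in macrophages alone and 15 to 63 at 180 min (3.25, SE 0.58, adjusted p = 6.71e-06).

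Vegfa, Edn1 and Pdgfb are known as genes that hypoxia raises, so a list of hypoxia genes was set beside them. Of 18 tested, 3, 2 and 3 were higher and 0, 2 and 5 lower at the 3 times, beside 4.69%, 11.1% and 15.1% of all genes higher and 6.11%, 9.97% and 16% lower, with medians of 0.03, -0.04 and -0.03. At 45 min the number lower was also 0 at an unadjusted p under 0.05 and with DESeq2. Hif1a, the oxygen-sensitive subunit, rose by 0.26 at 90 min (SE 0.050, adjusted p = 5.61e-05) and 0.48 at 180 min (SE 0.050, adjusted p = 7.14e-12). The glucose transporter gene Slc2a1 was called higher at all 3 times, by 0.23 at 45 min, 0.22 at 90 min and 0.41 at 180 min (SE 0.052, adjusted p = 3.73e-09 at 180 min). P4ha1, a collagen hydroxylase, fell by 0.50 at 180 min (SE 0.047, adjusted p = 1.02e-13). Adm, adrenomedullin, had 30 to 45 counts per library in macrophages alone and 3 to 14 at 180 min, and fell by 1.72 (SE 0.50, adjusted p = 0.00525), or by 2.60 without library 2 of 180 min. With thinned libraries this was -1.41 and not called. Ankrd37 had 58 counts in macrophages alone and 3 at 90 min, a ratio of 0.081 per total count (exact 95% interval 0.016 to 0.25, counting error only).

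Transcription factors known to act on promoters of these ligands moved in both directions. Of 26 tested, 15, 11 and 13 were higher and 1, 7 and 8 lower at the 3 times, beside 4.69%, 11.1% and 15.1% of all genes higher and 6.11%, 9.97% and 16% lower, with medians of 0.27, 0.08 and 0.22. Egr1, which acts on the PDGF genes, rose at 45 min from 14.4 ± 1.98 to 69.003 ± 7.20 CPM (2.27, SE 0.097, adjusted p = 5.98e-27). At 90 min Egr1 was at 26.1 ± 4.17 CPM and still called higher (0.87), and at 180 min it was lower (-0.39, SE 0.11, adjusted p = 0.00419). Fos rose at 45 min (0.68, SE 0.050, adjusted p = 2.22e-16) and fell at 90 min (-0.91, SE 0.052, adjusted p = 2.61e-21). Egr3 rose by 4.35, 4.49 and 3.35 at the 3 times (SE 0.36 to 0.39) and Egr2 by 2.38, 2.65 and 1.90 (SE 0.21 to 0.22), all called. The rises of Fosb were called at all 3 times, as were those of Cebpb (0.27, 0.67 and 0.96, SE 0.049 each) and Myc (0.61, 1.28 and 0.85, SE 0.10 each). Smad3, which carries TGF-beta signals, rose at 90 min (0.30, SE 0.063, adjusted p = 0.000193) and 180 min (0.94, SE 0.061, adjusted p = 1.02e-19), the times at which Pdgfb was also called higher.

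**Figure D4:**
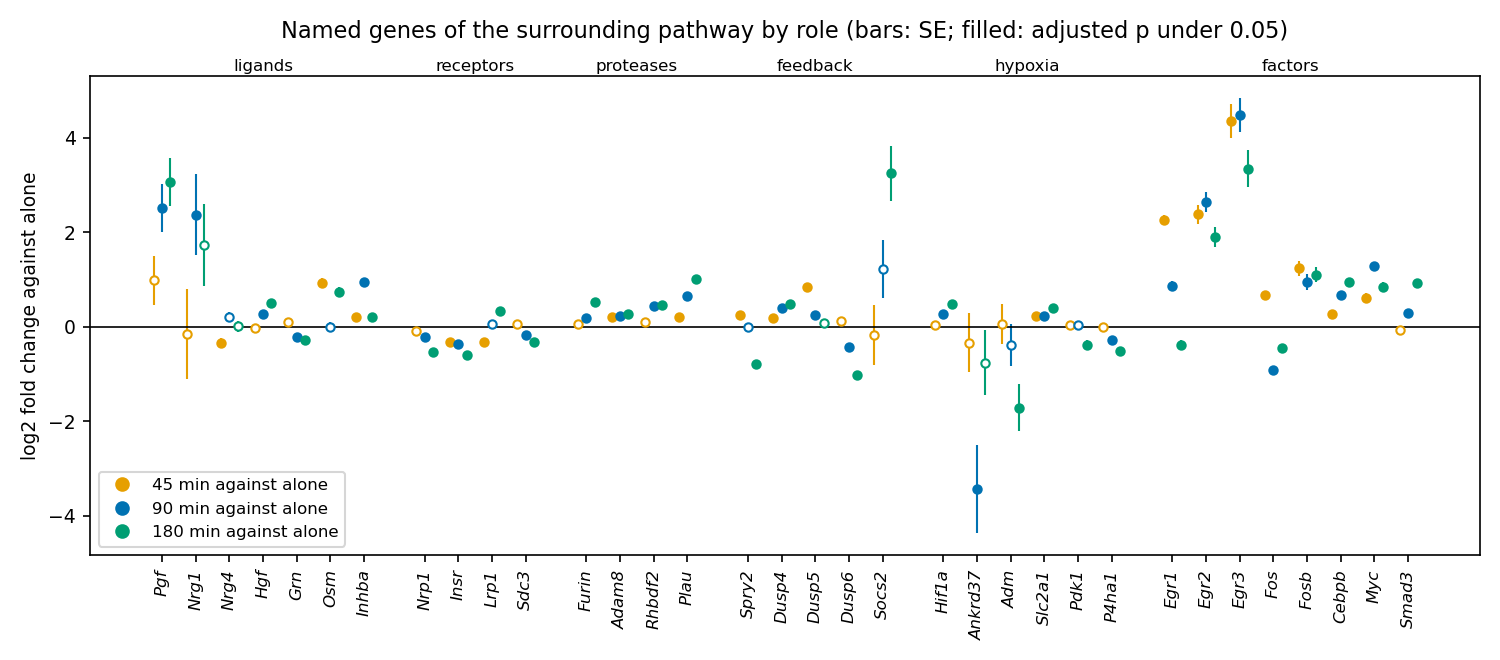
Log2 fold change against macrophages alone at 45, 90 and 180 min for named genes of the surrounding pathway, grouped by role, with the standard error as a bar and a filled point where the adjusted p is under 0.05. Egr3 has the highest value at each time (4.35, 4.49 and 3.35), with Pgf (3.07) and Socs2 (3.25) also high at 180 min, while the receptor Insr lies below 0 at all 3 times. The low point of Ankrd37 at 90 min rests on 3 counts.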

How the data were processed

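Total RNA of 16 libraries was measured. Raw counts per gene, without normalization, were deposited by the authors in a single table. Per the labels' protocols, ribosomal RNA was depleted and libraries were made with a directional kit. STAR 2.7.9a, SAMtools, HTSeq and the build mm39 are listed per the submitters' processing notes. How strand and human reads were handled is not given in the sources used here. The 55416 IDs were given symbols (52083 of them), exon lengths and GC content from GENCODE M21, which is of an earlier build, so no gene coordinates on mm39 are printed. Column names give the group of a library but no replicate number, so libraries 1 to 4 are named in file order. Replicates differed by more than sampling noise (chi-square per degree of freedom 3.98 to 10.2), so none was taken as another's repeat deposit.

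Genes were kept by edgeR's filter (minimum count 10, minimum total 15). With edgeR 4.0.16 in R 4.3.3, all 16 libraries entered 1 quasi-likelihood fit on group alone, scaled by TMM, and each comparison's F test was adjusted by Benjamini-Hochberg and called at an adjusted p under 0.05. A standard error is the size of the log2 fold change divided by the square root of F. CPM divide counts by the scaled library size, and those of markers and antisense genes use unscaled totals. Levels per length divide CPM by the union of a gene's exons.

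The 8 genes, the pathway lists and the cell type markers were chosen with earlier results of these data known. Named pathway genes were, for each list, up to 4 called genes with the smallest p over the 3 times, and any called gene whose log2 fold change reached 1 in size. The 3 most like genes had the highest Pearson r of log2 CPM (prior count 2) among tested genes of average log2 CPM at least 1 and a proper symbol. The antisense genes were looked up by their overlap after the values were seen. Alternatives were RLE factors, no filter, DESeq2 1.42.0, only the 2 groups in the fit, thinned libraries, a trend on length and GC content removed, and leaving out each library. Leaving out library 2 of every group was chosen after seeing the data. Thinning was a single random draw, so calls lost or gained with thinned libraries carry the noise of that draw.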

Additional observations from a re-analysis of the deposited data

Results flagged for a closer look

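In 168 pairs of a gene and a group, 8 held a library far from the other 3, and chance gives about 1 in 20. Hbegf had such a library in 3 groups. Library 2 was at 1.25 CPM in macrophages alone (others 0.805 to 0.868), at 3.72 at 90 min (others 1.34 to 1.45) and at 3.58 at 180 min (others 1.60 to 1.77). Igf1 in library 4 of 180 min was at 889.97 CPM, beside 839 to 844 in the others. Among the pathway genes, Inhba in library 3 of macrophages alone was at 136 CPM (others 107 to 110), and Lrp1 in library 1 of macrophages alone at 1415 CPM (others 1255 to 1280). Spry2 in library 3 of 45 min was at 79.7 CPM (others 73.2 to 74.0), and Ankrd37 in library 3 of macrophages alone at 0.831 CPM (others 0.483 to 0.509).

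Pathway genes whose libraries all stood on one side of macrophages alone at one time and all on the other side at another were Grn, Lrp1, Spry2 and Fos. Grn was at 0.0948 at 45 min, not called, and at -0.21 at 90 min and -0.28 at 180 min, and the direct comparisons with 45 min gave -0.31 (adjusted p = 1.22e-10) and -0.37 (adjusted p = 5.75e-14). Lrp1 was at -0.33 at 45 min and 0.34 at 180 min, with a direct difference of 0.67 (adjusted p = 3.47e-17). Spry2 was at 0.25 at 45 min and -0.79 at 180 min, with -1.04 between them (adjusted p = 1.34e-20). Fos was at 0.68 at 45 min, -0.91 at 90 min and -0.44 at 180 min, with -1.59 (adjusted p = 3.3e-33) and -1.12 (adjusted p = 9.33e-27) against 45 min.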

How the results depend on the processing

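All 160 totals of genes called in either direction under 23 alternative settings were within 1.5 times of the main totals. The split into higher and lower moved by more than this in some comparisons with the length and GC trend removed, as given above. Of 48 results of the 8 genes (6 comparisons each), 23 were called, 15 of these kept call and direction in every alternative, 7 lost the call in at least 1, and 1 was called in the opposite direction in 1. That was Igf1 at 90 against 45 min with the length and GC trend removed (-0.11), and the cause was not tested. Of the results not called, 11 were called in at least 1 alternative, and 11 changed sign in at least 1, among them all 6 of Vegfb. Of 75 called results of named pathway genes, 67 kept call and direction in every alternative in which they were tested. These genes were named for a small p or a large fold change in the same libraries, so this share is only a description. Group levels with unscaled totals moved by less than 1 SD in 32 of 32 cases. Pdgfa and Hbegf, with at most 87 and 65 counts per library, have the least depth behind their values. No paired analysis was possible because the columns carry no replicate number.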
